A study of Mus musculus with 8 samples.

Results

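The genes of MHC class II antigen presentation were followed in brown fat of mice, a tissue specialised in producing heat from lipid. The 9 genes were picked by name, with the difference between the groups already known: the invariant chain Cd74, the chains H2-Aa, H2-Ab1 and H2-Eb1, the DM genes H2-DMa, H2-DMb1 and H2-DMb2, the DO gene H2-Oa and the transactivator Ciita. All 9 were found among the 54532 genes of the deposited table. Of these, 8 averaged at least 0.5 FPKM over the 8 libraries (fragments per kilobase of gene length, on a scale corrected for depth) and were among the 13171 genes fitted, and H2-Oa was not. RNA came from mice whose brown adipocytes lack Ogt by targeted knockout (OGTBKO, 4 libraries) and from wild-type mice (WT, 4 libraries). Ogt encodes O-GlcNAc transferase, which adds the sugar O-GlcNAc to proteins inside the cell. All mice were kept at 23 °C. Induction followed after 8 weeks, and 2 months passed before the brown fat was dissected away from the white fat around it. The sources used here do not give the promoter that drives the recombinase, the deleted exons or the strain. The title of the series asks how this sugar signal in adipocytes bears on the vascularization of brown fat, so the class II genes lie outside its stated question. The labels call the cell type adipocytes, but tissue was taken whole and holds immune cells, vessels and connective tissue too.

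MHC class II molecules are paired alpha and beta chains that carry peptides from internalized proteins to the cell surface, where CD4 T cells read them. The invariant chain guides newly made pairs to the endosome and blocks their groove until proteases trim it to a short remnant. DM exchanges that remnant for other peptides, and DO restrains DM. Dendritic cells, B cells and macrophages express these genes constitutively or on activation, and adipocytes have been reported to express them as well. CIITA, a coactivator that binds no DNA itself, switches the genes on together by joining the factors RFX, CREB and NF-Y on a short promoter module of an X box followed by a Y box.

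That module was searched for in RefSeq promoters of 6 of the 9 genes (build GRCm38.p6, 250 bases before to 50 after the start). The promoter of Cd74 is not reported here, and the promoter set used had no entry for H2-Ab1 or Ciita. The Y box was read as ATTGG on either strand, the X1 part of the X box by its core ACNGATG and the X2 part as TGACGTCA, on both strands and without mismatches. A match of X1 and one of X2 may overlap. The letters of X1 were set after these promoters had been read. An X1 or X2 match followed within 30 bases by a Y box stood in the promoters of H2-Aa, H2-Eb1, H2-DMb1 and H2-DMb2, against 0.371% of 32851 mouse promoters of the same length. By itself the Y box was in 37.4% of them, the X1 core in 9.85% and the X2 match in 1.79%. The 4 promoters are shown 5′ to 3′ because they belong to chains and DM genes that are described below, with capitals marking the X and Y matches.
H2-Aa: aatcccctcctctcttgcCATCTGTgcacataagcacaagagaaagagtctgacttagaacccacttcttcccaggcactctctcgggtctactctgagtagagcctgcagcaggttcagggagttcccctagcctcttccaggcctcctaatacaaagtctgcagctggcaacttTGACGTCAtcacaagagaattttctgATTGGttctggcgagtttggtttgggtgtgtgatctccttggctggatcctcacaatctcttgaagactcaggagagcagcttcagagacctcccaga
H2-Eb1: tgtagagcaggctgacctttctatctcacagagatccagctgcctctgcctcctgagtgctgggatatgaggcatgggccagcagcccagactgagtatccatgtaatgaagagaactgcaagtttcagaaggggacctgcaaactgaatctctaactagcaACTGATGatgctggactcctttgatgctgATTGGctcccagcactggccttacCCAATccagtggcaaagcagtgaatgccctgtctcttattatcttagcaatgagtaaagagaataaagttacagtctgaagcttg
H2-DMb1: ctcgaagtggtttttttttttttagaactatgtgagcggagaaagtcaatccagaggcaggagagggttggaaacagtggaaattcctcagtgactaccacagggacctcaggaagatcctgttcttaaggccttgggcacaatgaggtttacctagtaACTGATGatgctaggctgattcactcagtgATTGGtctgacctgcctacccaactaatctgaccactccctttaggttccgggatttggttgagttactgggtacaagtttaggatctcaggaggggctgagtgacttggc
H2-DMb2: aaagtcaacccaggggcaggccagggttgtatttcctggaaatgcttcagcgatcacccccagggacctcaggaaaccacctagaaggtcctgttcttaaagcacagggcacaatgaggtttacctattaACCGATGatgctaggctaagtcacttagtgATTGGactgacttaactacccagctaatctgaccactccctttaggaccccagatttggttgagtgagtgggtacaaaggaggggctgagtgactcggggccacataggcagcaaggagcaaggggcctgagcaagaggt
The H2-Aa promoter covers chr17:34287774-34288073 on the minus strand and carries the X2 palindrome 18 bases before its Y box, and an X1 core on the other strand farther upstream. The H2-Eb1 promoter covers chr17:34305617-34305916 on the plus strand, with an X1 match 22 bases before a Y box and a second Y match, on the other strand, downstream. The H2-DMb1 promoter (chr17:34152941-34153240, plus strand) and the H2-DMb2 promoter (chr17:34144999-34145298, plus strand) both have the spacing of 23 bases, and are identical at 84.3% of 255 aligned positions. The H2-Oa promoter held an X1 core and a Y box but no such pair. The entries for H2-DMa held no such pair either, begin upstream of the gene model counted here and are not shown. The H2-DMb2 entry also differs from the counted start, since it lies inside the gene model counted here (chr17:34143307-34151553). A match of letters describes these windows and says nothing of which factor was bound in the tissue.

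Reads in genes numbered from 14409348 to 15897920 in OGTBKO and from 13393962 to 15293657 in WT. Ogt, the targeted gene, had 10.7, 14.5, 12.8 and 11.8 FPKM in OGTBKO 1 to 4, against 33.1, 24.7, 23.9 and 22.5 FPKM in WT 1 to 4, so all 8 libraries matched their labels (log2 change -1.03 ± 0.14 SE, adjusted p = 0.00511 by limma). WT 3 stood apart in interferon targets: 20 such genes summed to 54.9 to 73.1 FPKM in OGTBKO, against 293 FPKM in WT 3 and 57.1 to 96.4 FPKM in WT 1, WT 2 and WT 4. WT 3 also had the highest mitochondrial share of reads, 39.4%, where OGTBKO libraries had 25.2% to 30.2% and the other WT libraries 27.2% to 32.2%. Both libraries numbered 1 held skeletal muscle transcripts: 12 muscle markers summed to 1839 FPKM in OGTBKO 1 and 20.2 to 31.5 FPKM in the other OGTBKO libraries, and to 648 FPKM in WT 1 and 22.2 to 66.2 FPKM in the remaining WT libraries. The class II genes and the pathway lists are therefore also given without WT 3 and without both libraries numbered 1.

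The class II genes as a group were higher in OGTBKO. Of the 8 genes fitted, 6 passed the test in the higher direction (adjusted p under 0.05 by limma, over all genes), 0 in the lower direction and 2 did not pass. At an unadjusted p under 0.05 the counts were 7 and 0, and with voom on back-calculated reads 7 and 0. Over all genes, 8.11% passed in the higher direction and 7.46% in the lower direction, and because the genes were picked with this contrast known, no support is drawn from that count. Their median log2 change, OGTBKO minus WT, was 1.11, against -0.0021 over all genes fitted. In 6 of the 9 genes, every OGTBKO library was above every WT library, which was so for 11.1% of all genes fitted. In tissue RNA, more cells that express a gene and more RNA per cell cannot be told apart. The class II genes are rich in GC, with a median of 55.5% against 50.4% over the genes fitted, and with the GC content and length trend of each library removed 4 passed, namely Cd74, H2-Eb1, H2-DMa and H2-DMb1. Without WT 3, 7 passed and the median change was 1.19, and without both libraries numbered 1, 6 passed and it was 1.33.

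Cd74, which encodes the invariant chain, was the most abundant of the 9 (chr18:60803848-60812646, plus strand, mm10). It had 115, 192, 132 and 115 FPKM in OGTBKO 1 to 4, against 75.6, 37.9, 69.2 and 38.0 FPKM in WT 1 to 4. OGTBKO 2 was the highest library, WT 1 and WT 3 were the highest of the WT group, and the groups did not overlap. The means were 138 ± 36.9 FPKM in OGTBKO and 55.2 ± 20.1 FPKM in WT (SD, n = 4 each), a ratio of 2.51. The log2 change was 1.36 ± 0.27 (SE, 95% interval 0.75 to 1.97), and Cd74 passed the test under every setting tried, 19 of 19. It was 1.49 without WT 3 and 1.61 without both libraries numbered 1.

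H2-Eb1, the beta chain of the E molecule (chr17:34305877-34316199, plus strand), came second. It had 53.6, 79.1, 59.5 and 43.7 FPKM in OGTBKO 1 to 4, against 35.6, 20.5, 28.7 and 16.4 FPKM in WT 1 to 4. OGTBKO 2 was again the highest library, WT 4 was the lowest, and the lowest OGTBKO library stayed above the highest WT library. The means were 59.0 ± 14.9 FPKM in OGTBKO and 25.3 ± 8.58 FPKM in WT (SD, n = 4 each), with a log2 change of 1.23 ± 0.25 (SE, 95% interval 0.66 to 1.81). H2-Eb1 no longer passed without OGTBKO 3 (log2 1.22) or without WT 2 (log2 1.15). Its change was 1.31 without WT 3 and 1.45 without both libraries numbered 1. The alpha chain that pairs with it is annotated in this table only as the pseudogene H2-Ea-ps, which had 0 reads in each of the 8 libraries. A count of 0 allows up to 3 reads in a library, and this pseudogene was singled out after its values were seen.

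H2-Aa and H2-Ab1 encode the alpha and beta chains of the A molecule and lie close together (chr17:34282744-34287827, minus strand, and chr17:34263209-34269418, plus strand). H2-Aa had 36.8, 54.2, 35.8 and 31.6 FPKM in OGTBKO 1 to 4, against 28.8, 14.9, 22.3 and 14.1 FPKM in WT 1 to 4. H2-Ab1 had 29.0, 42.7, 30.9 and 24.2 FPKM in OGTBKO 1 to 4, against 22.1, 12.8, 20.7 and 11.4 FPKM in WT 1 to 4. In both genes the groups were apart by a narrow margin, set by OGTBKO 4 on one side and WT 1 on the other. H2-Aa averaged 39.6 ± 9.99 FPKM in OGTBKO and 20.001 ± 6.90 FPKM in WT, and H2-Ab1 averaged 31.7 ± 7.86 FPKM in OGTBKO and 16.8 ± 5.40 FPKM in WT (SD, n = 4 each). The log2 changes were 0.998 ± 0.25 for H2-Aa (SE, 95% interval 0.44 to 1.55) and 0.92 ± 0.24 for H2-Ab1 (SE, 95% interval 0.38 to 1.47). Their calls were the least stable of the 6. H2-Aa no longer passed without OGTBKO 2, OGTBKO 3, WT 2 or WT 4, where its log2 change was 0.84, 1.04, 0.88 and 0.85 in that order. H2-Ab1 passed, among the 8 fits that leave out a library, without WT 1 (log2 1.07) and without WT 3 (log2 1.04), and its change was 0.77 to 1.04 in the other 6. Without WT 3 the change of H2-Aa was 1.07, and without both libraries numbered 1 the changes were 1.21 for H2-Aa and 1.11 for H2-Ab1.

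**Figure D1:**
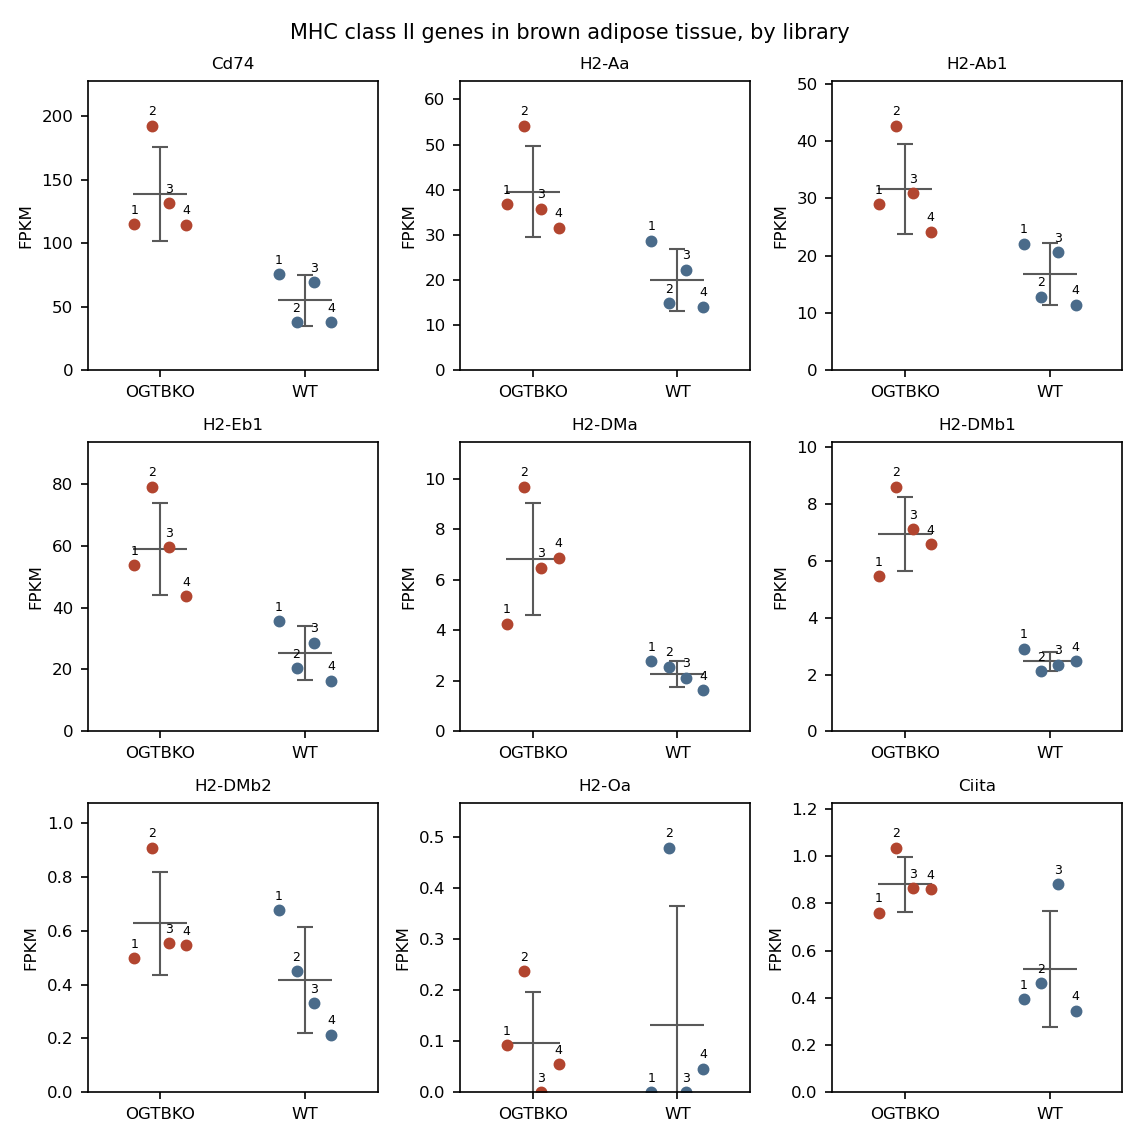
FPKM of the 9 class II genes in each library (y axis, linear and from 0), with OGTBKO left of WT; points carry their library number, horizontal bars are means and vertical bars the SD over 4 libraries. Cd74, H2-Aa, H2-Ab1, H2-Eb1, H2-DMa and H2-DMb1 have all 4 OGTBKO points above all 4 WT points, while H2-DMb2, H2-Oa and Ciita overlap.

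The genes of the peptide editor DM were lower in level than the chains. The ratios of the group means of H2-DMa and H2-DMb1 were above those of Cd74 and the chains, while that of H2-DMb2 was below them. H2-DMb1, its beta chain (chr17:34153072-34160230, plus strand), had 5.45, 8.61, 7.12 and 6.58 FPKM in OGTBKO 1 to 4, against 2.91, 2.12, 2.35 and 2.47 FPKM in WT 1 to 4. The WT libraries lay close together, WT 3 among them, and the lowest OGTBKO library was well clear of the highest WT library. The means were 6.94 ± 1.31 FPKM in OGTBKO and 2.46 ± 0.335 FPKM in WT (SD, n = 4 each), a ratio of 2.82 with a log2 change of 1.32 ± 0.14 (SE, 95% interval 0.99 to 1.64), close to the 1.36 of Cd74 on that scale.

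H2-DMa, the alpha chain of DM (chr17:34135182-34139101, plus strand), had 4.27, 9.69, 6.47 and 6.87 FPKM in OGTBKO 1 to 4, against 2.77, 2.55, 2.13 and 1.64 FPKM in WT 1 to 4. OGTBKO 1 was the lowest of its group and nearest to the WT libraries. H2-DMa averaged 6.83 ± 2.23 FPKM in OGTBKO and 2.27 ± 0.499 FPKM in WT (SD, n = 4 each), a ratio of 3.002 and the highest of the 9. Its log2 change was 1.37 ± 0.22 (SE, 95% interval 0.86 to 1.88). Both H2-DMa and H2-DMb1 passed the test in 19 of 19 settings. Without both libraries numbered 1 their log2 changes were 1.64 for H2-DMa and 1.49 for H2-DMb1, and without WT 3 they were 1.35 and 1.30.

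H2-DMb2 is a near copy of H2-DMb1 next to it on the chromosome (chr17:34143307-34151553, plus strand). Their longest transcripts are identical at 94.7% of 1219 aligned bases, so reads could be split or lost between the pair, and the values of both are uncertain to that extent. H2-DMb2 had 0.499, 0.908, 0.553 and 0.546 FPKM in OGTBKO 1 to 4, against 0.675, 0.449, 0.331 and 0.215 FPKM in WT 1 to 4, from 13 to 25 reads in OGTBKO and 6 to 16 reads in WT. The groups overlapped because WT 1 was above 3 OGTBKO libraries. The log2 change was 0.31 ± 0.21 (SE, 95% interval -0.18 to 0.79) and did not pass, nor did it without WT 3 (0.27) or without both libraries numbered 1 (0.49). The ratio of H2-DMb1 to H2-DMb2 ran from 9.49 to 12.9 in OGTBKO and from 4.32 to 11.5 in WT.

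H2-Oa, the alpha chain of the DM inhibitor DO (chr17:34092340-34095234, plus strand), was barely detected. It had 2, 5, 0 and 1 reads in OGTBKO 1 to 4, against 0, 9, 0 and 1 reads in WT 1 to 4, which is 0 to 0.236 FPKM in OGTBKO and 0 to 0.478 FPKM in WT. No difference was detectable at this depth, and no fold is given. Its partner H2-Ob, the DO beta chain, had 0.176 to 0.501 FPKM in OGTBKO and 0.160 to 0.354 FPKM in WT and was also under the filter.

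Ciita, the transactivator of the family (chr16:10480059-10528418, plus strand), had 0.760, 1.04, 0.863 and 0.859 FPKM in OGTBKO 1 to 4, against 0.393, 0.462, 0.882 and 0.346 FPKM in WT 1 to 4. All OGTBKO libraries were above WT 1, WT 2 and WT 4, and WT 3, the library high in interferon targets, lay within the OGTBKO range. Ciita averaged 0.879 ± 0.114 FPKM in OGTBKO and 0.521 ± 0.245 FPKM in WT (SD, n = 4 each), a ratio of 1.69. Its log2 change of 0.46 ± 0.19 (SE, 95% interval 0.03 to 0.89) did not pass the test. Without both libraries numbered 1 the change was 0.45. Without WT 3 it was 0.61 and Ciita passed, and it passed also with array weights (0.56) and with voom on back-calculated reads (0.90). These values rest on 114 to 159 reads in OGTBKO and 52 to 89 reads in WT. Dexi, a gene on the opposite strand, overlaps Ciita and was higher too, with 2.96 ± 0.320 FPKM in OGTBKO and 2.03 ± 0.112 FPKM in WT (SD, n = 4 each; log2 change 0.45 ± 0.10 SE, adjusted p = 0.0227 by limma). That call ended without OGTBKO 3, OGTBKO 4 or WT 2. The sources used here do not say whether counting used strand, so reads of the 2 genes cannot be told apart where they overlap.

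Ciita was the 1 gene of the 8 fitted with its highest WT value in WT 3. The 4 genes Cd74, H2-Aa, H2-Ab1 and H2-Eb1 had their highest WT value in WT 1, and the DM genes had WT 3 at 2.13 FPKM (H2-DMa) and 2.35 FPKM (H2-DMb1), inside the WT range.

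Within the groups, the 4 abundant genes rose and fell together from library to library. With each group's mean removed, the 6 pairs among Cd74, H2-Aa, H2-Ab1 and H2-Eb1 correlated across the 8 libraries with Pearson r between 0.943 and 0.983, on log2(FPKM + 0.5). Against the mean deviation of these 4, r was 0.76 for H2-DMb2, 0.66 for H2-DMb1, 0.57 for H2-DMa and 0.47 for Ciita. The DM genes departed from the mean deviation of the 4 in several libraries. On the log2 scale H2-DMa stood apart from it by -0.44 in OGTBKO 1, 0.38 in OGTBKO 4 and 0.50 in WT 2, and H2-DMb1 by 0.49 in WT 4. In WT 3 all 3 DM genes were below it, H2-DMa by -0.36, H2-DMb1 by -0.35 and H2-DMb2 by -0.42. Each r rests on the same 8 libraries, with their shared depth and scaling, and is a description with no p.

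**Figure D2:**
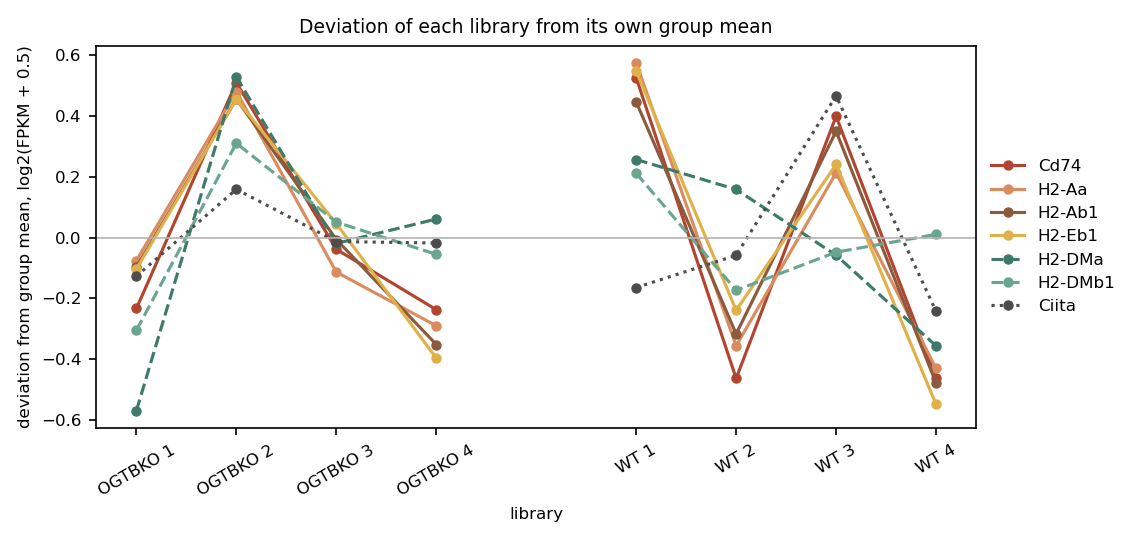
Deviation of each library (x axis) from the mean of its own group on the log2(FPKM + 0.5) scale (y axis) for 7 class II genes; solid lines are Cd74 and the 3 chains, dashed lines the DM genes and the dotted line Ciita. The 4 solid lines run together, high in OGTBKO 2, WT 1 and WT 3, whereas Ciita is highest in WT 3 and the dashed lines part from the solid ones in several libraries, by up to 0.50 for H2-DMa in WT 2.

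Of 13163 other genes, 26 had r over 0.9 with the mean of the 4. How many unrelated genes would reach that r over 8 libraries was not worked out. The count and the names are therefore not read as a link to class II. The 6 protein-coding ones with the highest r and a mean of at least 1 FPKM were C2cd5 (r = 0.95), Cd3eap (0.94), Incenp (0.93), Tifab (0.93), Tgfbi (0.92) and Kdm5d (0.92). Those 6 were picked for the highest r, so a lower r in other genes carries no information. Markers of the cells that carry class II had r over a wide range. Ptprc, the leukocyte surface phosphatase CD45, had r = 0.71, and the dendritic cell markers Cd209a and Clec9a had 0.71 and 0.49. Itgax, the integrin CD11c, had 0.40, the leukocyte marker Itgb2 had 0.09 and Adgre1, the macrophage receptor F4/80, had 0.00028. B2m, a class I gene, had 0.77, above the DM genes and Ciita.

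Between the groups, some proportions among the class II genes shifted. The ratio of Cd74 to H2-Aa was 3.13, 3.55, 3.68 and 3.62 in OGTBKO 1 to 4, against 2.63, 2.55, 3.11 and 2.69 in WT 1 to 4. The ratio of H2-Eb1 to H2-Ab1 was 1.85, 1.85, 1.93 and 1.80 in OGTBKO 1 to 4, against 1.61, 1.59, 1.39 and 1.44 in WT 1 to 4. In both ratios all OGTBKO libraries were above all WT libraries, and for Cd74 over H2-Aa the nearest were OGTBKO 1 and WT 3. The ratio of H2-Aa to H2-Ab1, the chains of 1 molecule, overlapped, at 1.16 to 1.31 in OGTBKO and 1.08 to 1.30 in WT. The ratio of H2-DMa to H2-DMb1, likewise partners, also overlapped, at 0.782 to 1.12 in OGTBKO and 0.664 to 1.21 in WT. These ratios come from the contrast that chose the genes and are given without a test.

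Of the 9 genes, 7 lie within a stretch of 247.9 kb of chromosome 17 (chr17:34092340-34340229), from H2-Oa to H2-Eb2, which holds 19 annotated genes. Of these, 11 were fitted: 6 of the class II genes and 5 others. Brd2, which encodes a bromodomain protein of chromatin, was the 1 other gene that passed, with 17.004, 18.1, 17.96 and 19.5 FPKM in OGTBKO 1 to 4, against 12.6, 12.8, 15.7 and 12.5 FPKM in WT 1 to 4. Its log2 change was 0.43 ± 0.10 (SE, adjusted p = 0.0269 by limma), and the call ended without any of OGTBKO 2, OGTBKO 3, OGTBKO 4, WT 2 or WT 4. Between the DM genes and the chains sit Psmb8 and Psmb9, subunits of the immunoproteasome, and Tap1 and Tap2, the peptide transporter of class I presentation. None of these 4 passed, and their log2 changes were -0.73 for Psmb8, -0.20 for Psmb9, -0.46 for Tap1 and -0.44 for Tap2 (adjusted p by limma 0.124, 0.725, 0.401 and 0.204). Without WT 3 these were -0.42 for Psmb8, 0.21 for Psmb9, -0.06 for Tap1 and -0.26 for Tap2, and without both libraries numbered 1 Tap2 passed lower (log2 change -0.74, adjusted p = 0.0373 by limma). Psmb9 had 1.98 to 2.20 FPKM in OGTBKO, against 6.48 FPKM in WT 3 and 1.62 to 1.81 FPKM in the remaining WT libraries. H2-Eb2, at the far end, had at most 0.176 FPKM in OGTBKO and 0.163 FPKM in WT.

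**Figure D3:**
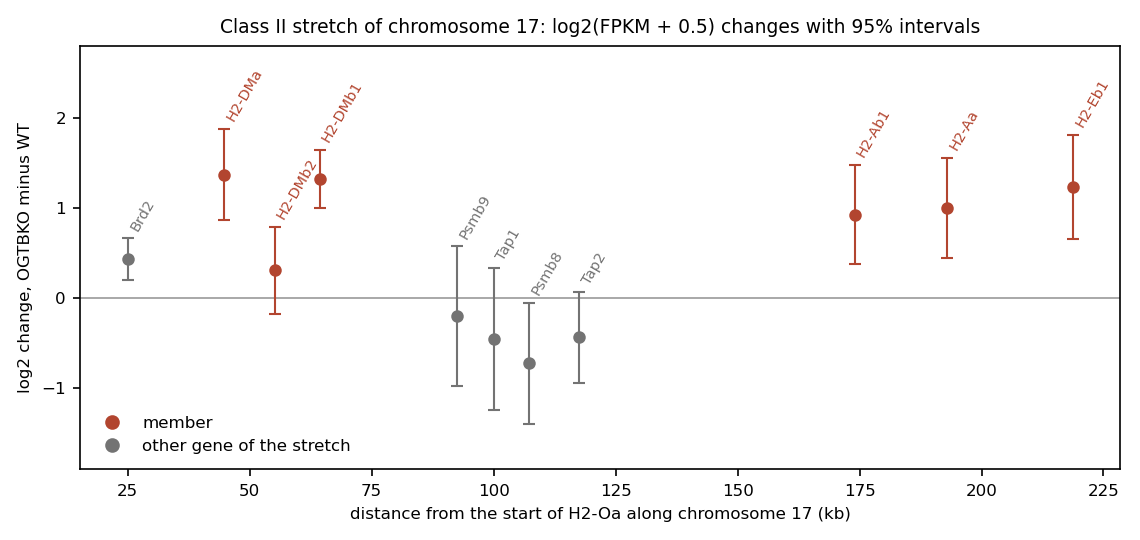
Log2 change, OGTBKO minus WT, on the log2(FPKM + 0.5) scale (y axis) of the 11 fitted genes of the class II stretch, by distance of the gene's middle from the start of H2-Oa (x axis, kb); bars are 95% intervals of the limma fit. The class II genes at both ends lie above 0, with H2-DMb2 reaching across it, and the 4 class I genes between them have estimates below 0, 3 of them with intervals that cross 0; without WT 3 the estimate for Psmb9 was above 0.

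The interferon pathway that induces Ciita in many cell types was read in its targets and in its receptor and signalling genes. Of 20 interferon-gamma-induced GTPases and targets, 0 passed in either direction by limma, and their median log2 change was -0.50. At an unadjusted p under 0.05, 0 were higher and 6 lower, and with voom 0 higher and 1 lower. Gbp7, a guanylate-binding protein, had the smallest p of the list, with 2.78 to 3.75 FPKM in OGTBKO and 4.72 to 20.2 FPKM in WT (log2 change -1.21 ± 0.36 SE, adjusted p = 0.0525 by limma). Of the 20 genes, 19 had a negative log2 change and 1, Cxcl9, a positive one (0.44, adjusted p = 0.283 by limma). Cxcl9 had 5.96 to 8.28 FPKM in OGTBKO, against 9.33 FPKM in WT 3 and 3.45 to 4.23 FPKM in WT 1, WT 2 and WT 4. Without WT 3 the list's median was -0.09, with 1 gene higher and 1 lower, and without both libraries numbered 1 it was -0.85, with 0 higher and 2 lower. The list of interferon-gamma receptor and signalling genes also held the cytokine genes Il10 and Tgfb1 and genes of their receptors, which are not part of that pathway. Of its 11 fitted genes, 2 passed higher and 1 lower, which is 27.3% of the list. Over all genes fitted, 15.6% passed in either direction. The calls include Tgfb1, so the share does not describe interferon-gamma signalling alone. Without WT 3 the list had 2 higher and 2 lower, and without both libraries numbered 1 it had 3 higher and 1 lower. Tgfb1, a cytokine that restrains immune activation, had 5.07, 5.67, 7.13 and 5.34 FPKM in OGTBKO 1 to 4, against 2.50, 2.63, 2.66 and 2.58 FPKM in WT 1 to 4 (log2 change 1.02 ± 0.11 SE, adjusted p = 0.00236 by limma). Ptpn2, a phosphatase that damps JAK signalling, was higher (log2 change 0.56 ± 0.13 SE, adjusted p = 0.024 by limma), and Stat3 was lower (log2 change -0.60 ± 0.14 SE, adjusted p = 0.0223 by limma). The Tgfb1 call held without any 1 library, that of Ptpn2 ended without OGTBKO 2, OGTBKO 3, OGTBKO 4, WT 2 or WT 4, and that of Stat3 without OGTBKO 2, OGTBKO 3 or WT 2.

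Of 18 fitted transcription factors and cofactors of class II genes, 1 passed higher and 1 lower, and their median log2 change was -0.07. These 2 are 11.1% of the list, below the 15.6% over all genes, and both encode DNA-binding partners of CIITA. The counts were the same without WT 3, and both were 0 without both libraries numbered 1. The summed level of the list was 78.5 to 84.5 FPKM in OGTBKO and 84.7 to 92.0 FPKM in WT, lower in OGTBKO with no overlap (exact two-sided permutation p = 0.0286, the smallest this design allows, 0.181 adjusted over 19 lists). Nfyc, a subunit of the Y box factor NF-Y, averaged 13.0 ± 1.05 FPKM in OGTBKO and 10.1 ± 0.329 FPKM in WT (log2 change 0.34 ± 0.09 SE, adjusted p = 0.0344 by limma). Creb1, which binds the X2 box, averaged 2.35 ± 0.123 FPKM in OGTBKO and 3.31 ± 0.457 FPKM in WT (log2 change -0.41 ± 0.11 SE, adjusted p = 0.0363 by limma). Each of these calls ended when any of 6 of the 8 libraries was left out: the Nfyc call held without OGTBKO 1 or WT 3, and the Creb1 call without WT 1 or WT 4. Rfx5, the X1 box subunit, had a log2 change of 0.01 (95% interval -0.29 to 0.31). Irf1 had -0.07 (0.09 without WT 3), Irf8 0.23 and Spi1 0.34, and none of these passed.

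Of 11 fitted genes that act on class II molecules after synthesis, 0 passed higher and 1 lower by limma. That is 9.09% of the list, below the 15.6% over all genes fitted. The median log2 change of the list was 0.11 (3 higher and 3 lower at an unadjusted p under 0.05, and 1 higher and 2 lower with voom). Without WT 3 there were 0 higher and 1 lower, and without both libraries numbered 1 there were 1 higher and 2 lower. Ctss, cathepsin S, the protease that trims the invariant chain, had 25.1, 62.8, 63.4 and 65.5 FPKM in OGTBKO 1 to 4, against 27.7, 24.1, 25.1 and 29.5 FPKM in WT 1 to 4. OGTBKO 1 lay among the WT libraries while the other 3 OGTBKO libraries were far above them. Its log2 change of 0.92 ± 0.28 (SE) did not pass (adjusted p = 0.0566 by limma), and without OGTBKO 1 it did (adjusted p = 0.00273 by limma). Sppl2a, the membrane protease that clears the last invariant chain fragment, was lower, with 11.7, 13.1, 11.3 and 12.8 FPKM in OGTBKO 1 to 4, against 15.6, 20.5, 18.6 and 18.6 FPKM in WT 1 to 4 (log2 change -0.56 ± 0.11 SE, adjusted p = 0.0126 by limma). That call held without any 1 library and ended with the GC content and length trend removed (log2 change -0.28, adjusted p = 0.0873 by limma) or with FPKM divided by the library total instead (-0.45, adjusted p = 0.0666). March8, an E3 ubiquitin ligase of the family that takes class II molecules off the cell surface, had a log2 change of -0.41 ± 0.12 (SE) and did not pass (adjusted p = 0.0537 by limma).

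Class I presentation is the parallel route for peptides from inside the cell. Of its 21 genes 0 passed higher and 1 lower by limma, and their median log2 change was -0.15 (0 higher and 3 lower at an unadjusted p under 0.05, and 0 higher and 2 lower with voom). Without both libraries numbered 1 there were 0 higher and 2 lower. Without WT 3 there were 1 higher and 2 lower, and the median was 0.04. The higher gene was then Psmb10, an immunoproteasome subunit, with 10.5, 10.7, 13.05 and 11.1 FPKM in OGTBKO 1 to 4, against 6.90, 7.21, 13.3 and 6.24 FPKM in WT 1 to 4. Its log2 change was 0.47 with all libraries (adjusted p = 0.160 by limma) and 0.70 without WT 3 (adjusted p = 0.00962 by limma). The lower genes without WT 3 were Canx and Erap1, a peptidase that trims class I peptides (log2 change -0.44, adjusted p = 0.0378 by limma). B2m, the light chain of every class I molecule, had 513 to 696 FPKM in OGTBKO and 501 to 1081 FPKM in WT (log2 change -0.20, 95% interval -0.75 to 0.35, adjusted p = 0.615 by limma, and 0.04 without WT 3). Nlrc5, the class I counterpart of CIITA, had a log2 change of -0.53 and did not pass (adjusted p = 0.178 by limma). The gene that passed with all libraries was Canx, a chaperone of newly made glycoproteins, at 33.2 ± 2.10 FPKM in OGTBKO and 50.6 ± 6.51 FPKM in WT (SD, n = 4 each; log2 change -0.59 ± 0.12 SE, adjusted p = 0.0137 by limma). That call held without any 1 library and ended with FPKM divided by the library total (log2 change -0.48, adjusted p = 0.123 by limma). Summed over Cd74, H2-Aa, H2-Ab1 and H2-Eb1, class II amounted to 0.417 to 0.529 of the B2m level in OGTBKO, against 0.130 to 0.237 in WT. Of 15 costimulatory genes and CD4 partners, 4 were abundant enough to fit and 0 passed by limma, by voom or at an unadjusted p under 0.05.

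The cells that carry class II were then read from their markers. Of 12 pan-leukocyte markers, 1 passed higher and 0 lower (3 and 0 at an unadjusted p under 0.05, and 0 and 0 with voom), and their summed level was 49.7 to 112 FPKM in OGTBKO and 50.7 to 77.8 FPKM in WT (exact two-sided permutation p = 0.20). Of the 12, 10 had a positive log2 change and 2 a negative one, with a median of 0.25. Ptprc had 1.30 to 2.56 FPKM in OGTBKO and 1.52 to 1.93 FPKM in WT (log2 change 0.07). Tyrobp had a log2 change of 1.01 and Itgb2 of 0.84, and neither passed (adjusted p = 0.0555 and 0.0811 by limma). The marker that passed was Cd52, a surface protein of lymphocytes and myeloid cells (log2 change 0.83 ± 0.22 SE, adjusted p = 0.0366 by limma). Its call held without OGTBKO 1 or WT 1 and ended without any of the other 6 libraries. The 4 class II genes summed to 234, 368, 258 and 214 FPKM in OGTBKO 1 to 4, against 162, 86.1, 141 and 79.9 FPKM in WT 1 to 4. Divided by Ptprc, that sum was 130 to 181 in OGTBKO and 52.7 to 84.0 in WT, with no overlap. Divided by the summed pan-leukocyte markers it was 2.29 to 4.72 in OGTBKO and 1.12 to 2.78 in WT, with an overlap between OGTBKO 3, OGTBKO 4 and WT 3. Without both libraries numbered 1, 4 of the 12 pan-leukocyte markers passed higher. The part of leukocyte number in the class II values was not tested.

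Of 21 macrophage markers fitted, 0 passed higher and 1 lower by limma (3 and 2 at an unadjusted p under 0.05, and 0 and 2 with voom), and 22 were listed. Their sum was 874 to 1160 FPKM in OGTBKO and 702 to 1280 FPKM in WT (exact two-sided permutation p = 1.0), but Lpl, the lipoprotein lipase that brown adipocytes also express in abundance, made up 449 to 576 FPKM of it in OGTBKO and 459 to 868 FPKM in WT. Without Lpl, left out after the values were seen, the list summed to 298, 637, 527 and 543 FPKM in OGTBKO 1 to 4, against 427, 333, 223 and 412 FPKM in WT 1 to 4 (exact two-sided permutation p = 0.143). OGTBKO 2, OGTBKO 3 and OGTBKO 4 were then above every WT library and OGTBKO 1 lay among them. Adgre1 had 7.94, 14.3, 12.6 and 12.4 FPKM in OGTBKO 1 to 4, against 10.2, 11.9, 10.6 and 12.1 FPKM in WT 1 to 4 (log2 change 0.05, 95% interval -0.33 to 0.42). Cd163, a scavenger receptor of resident macrophages, was lower (log2 change -1.06 ± 0.29 SE, adjusted p = 0.0413 by limma), a call that held without OGTBKO 1 or WT 3 and ended without any of the other 6 libraries. Trem2, a receptor of lipid-laden macrophages, had 0.665, 1.996, 3.08 and 2.50 FPKM in OGTBKO 1 to 4, against 0.569, 0.621, 0.363 and 0.927 FPKM in WT 1 to 4. It did not pass with all libraries (adjusted p = 0.0519 by limma) and did without OGTBKO 1 (adjusted p = 0.00991 by limma). Without both libraries numbered 1, 5 macrophage markers passed higher and 1 lower.

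Of the dendritic cell markers, 9 of 16 were fitted and 2 passed higher, with 0 lower. Itgax had 1.19, 2.25, 2.35 and 1.66 FPKM in OGTBKO 1 to 4, against 0.390, 0.436, 0.295 and 0.216 FPKM in WT 1 to 4. The groups were far apart (log2 change 1.48 ± 0.20 SE, adjusted p = 0.00425 by limma), and the call held without any 1 library. Macrophages of fat express Itgax too. Fscn1, an actin-bundling protein of mature dendritic cells and of other cells, was also higher (log2 change 0.76 ± 0.16 SE, adjusted p = 0.0185 by limma), a call that ended without OGTBKO 3 or WT 2. It also ended with the GC content and length trend removed (log2 change 0.54, adjusted p = 0.0707 by limma). The list then had 1 higher and 1 lower, the lower being Bst2 (log2 change -1.10, adjusted p = 0.0373 by limma). With the trend kept, Bst2 did not pass (log2 change -0.80, adjusted p = 0.0602 by limma). The defining genes Flt3, Xcr1, Clec9a, Batf3 and Ccr7 summed to 1.31 to 3.64 FPKM in OGTBKO and 1.19 to 1.54 FPKM in WT, and Zbtb46 had a log2 change of -0.20 that did not pass. Divided by Itgax, the class II sum was lower in OGTBKO, at 110 to 197, against 197 to 477 in WT, so Itgax differed more between the groups than the class II genes did. The part of dendritic cells or Itgax-bearing macrophages in the class II values was not tested.

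Of the B cell markers, 3 of 17 were fitted, 1 passed higher and 1 lower. Ighm, the constant region of IgM heavy chain, had 72.5, 130, 254 and 112 FPKM in OGTBKO 1 to 4, against 9.60, 16.0, 11.5 and 8.14 FPKM in WT 1 to 4 (log2 change 3.49 ± 0.35 SE, adjusted p = 0.00236 by limma), and the call held without any 1 library. The 17 markers summed to 87.1 to 266 FPKM in OGTBKO and 24.3 to 34.4 FPKM in WT, with no overlap (exact two-sided permutation p = 0.0286, 0.181 adjusted over 19 lists), and in OGTBKO most of that sum was Ighm. The order of the OGTBKO libraries in Ighm differed from that of the class II genes, with Ighm highest in OGTBKO 3 and Cd74 in OGTBKO 2. The defining surface genes Ms4a1, Cd79a and Cd79b were near 0, at a sum of 0.481 to 1.32 FPKM in OGTBKO and 0.305 to 0.999 FPKM in WT. The marker that passed lower was Ebf1, a transcription factor of B cells and of adipocytes (log2 change -0.75 ± 0.15 SE, adjusted p = 0.0144 by limma), and its call ended without OGTBKO 3. T cell receptor genes Cd3e, Cd3d and Cd3g summed to 0.0273 to 0.281 FPKM in OGTBKO and 0.0232 to 0.318 FPKM in WT, and of 4 fitted T and NK cell markers 0 passed by limma or voom, and 2 were higher at an unadjusted p under 0.05.

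**Figure D4:**
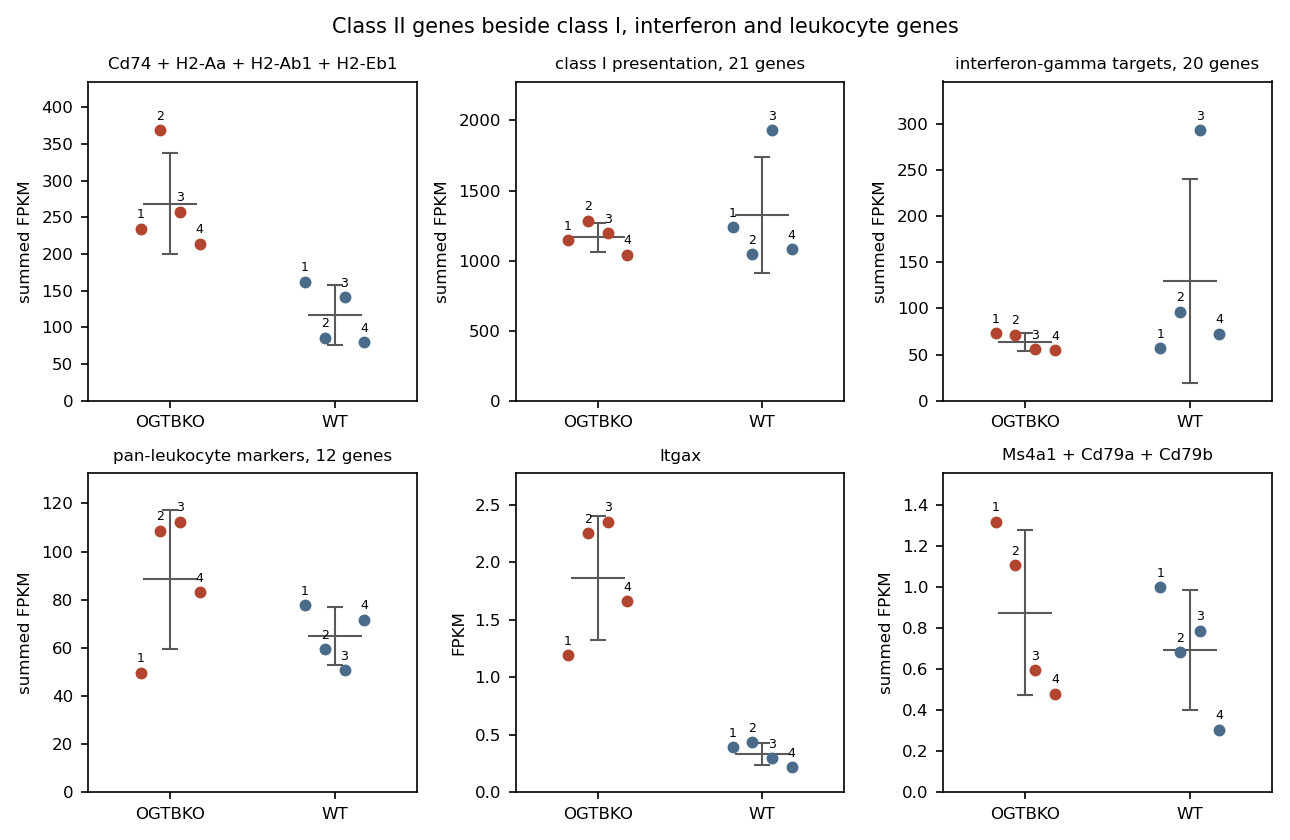
Summed FPKM of Cd74, H2-Aa, H2-Ab1 and H2-Eb1 beside class I genes, interferon-gamma targets, pan-leukocyte markers, Itgax alone and 3 B cell genes (y axes, linear and from 0), with OGTBKO left of WT; points carry library numbers, bars are means and SD over 4 libraries. The class II sum (214 to 368 FPKM in OGTBKO, 79.9 to 162 FPKM in WT) and Itgax separate the groups, the other 4 panels overlap, and WT 3 stands high in class I genes and interferon targets.

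In the remaining lists of cell types, 2 of 9 monocyte and neutrophil markers passed lower and 0 higher, S100a8 and Plac8, with 1.39 ± 0.713 FPKM of S100a8 in OGTBKO and 12.6 ± 8.59 FPKM in WT (SD, n = 4 each). Both calls ended without OGTBKO 2, OGTBKO 3, OGTBKO 4, WT 1, WT 2 or WT 4, that of Plac8 also without OGTBKO 1, and without WT 3 there were 5 lower. Of 4 plasma cell markers 1 passed higher (Sdc1, log2 change 0.57 ± 0.17 SE, adjusted p = 0.0477 by limma, a call that ended without OGTBKO 2, OGTBKO 3, OGTBKO 4, WT 2 or WT 4). Of 12 brown adipocyte markers 2 passed higher and 2 lower (33.3% of the list), and of 7 white adipocyte markers 2 higher and 0 lower (28.6%). Of 12 endothelial markers 1 passed higher and 0 lower (8.33%). Over all genes fitted, 15.6% passed in either direction. The white adipocyte calls were Lep, which ended without OGTBKO 3, and Sncg, which ended without OGTBKO 1, OGTBKO 2, OGTBKO 3, WT 2 or WT 4. Neither the 8 fibroblast and mesothelial markers nor the 12 skeletal muscle markers nor the 1 lymph node stroma marker fitted had a gene that passed by limma or voom, and at an unadjusted p under 0.05 the lymph node gene was lower. The white adipocyte markers summed to 171 to 232 FPKM in OGTBKO and 66.4 to 139 FPKM in WT, with no overlap (exact two-sided permutation p = 0.0286, the smallest this design allows, 0.181 adjusted over 19 lists). Their part in the class II values was not tested.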

How the data were processed

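RNA of dissected brown adipose tissue was sequenced from libraries made with a NEBNext Ultra kit, per the labels' protocols. Alignment and counting tools are named in the submitters' processing notes as HISAT2 2.0.5 and featureCounts 1.5.0-p3 (Subread), with the build mm10. The strand setting is not given in the sources used here. The authors deposited 1 table of FPKM values, and 0 value columns were left out. Times gene length, the FPKM of each library came out as whole reads in 100% of cases (tolerance 0.001), which gave the reads per gene. The FPKM denominators were 0.790 to 1.13 times the library totals, so libraries had been scaled to each other and a fold is set against the bulk of genes. In a gene of 1 kb, 1 read was worth 0.0556 to 0.0945 FPKM. Of the gene identifiers, 99.9% were in GENCODE M21, 98.3% at the same coordinates.

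Values were analysed as log2(FPKM + 0.5), which understates changes of low genes, for genes that averaged 0.5 FPKM or more. The test of OGTBKO against WT was that of limma 3.58.1 (R 4.3.3, eBayes with trend, two-sided, no covariates), adjusted by Benjamini-Hochberg over all genes fitted, with calls at an adjusted p under 0.05. Errors beside FPKM means are SDs, those beside log2 changes SEs of the fit. Summed levels of 19 gene lists were compared by an exact two-sided permutation test over 70 assignments (scipy 1.17.1). The labels do not say that the libraries came from separate animals, so the p-values reflect spread among samples that may be technical. The steps were tested on simulated data.

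The class II genes and all lists were chosen with earlier results of these data known. Named genes were all 9 class II genes, Ogt, up to 4 genes with the smallest p of each list, a fixed set of lineage and pathway genes, and the 6 genes most like the class II chains within groups. The other genes of the chromosome 17 stretch, those overlapping class II genes, Cd209a and Cxcl9 were added after their values were seen. Some genes of the lists are not reported here. March8 was matched by gene identifier, since its symbol is mangled to a date in the table. Alternatives changed the pseudocount, the filter, the denominator, the GC content and length trend, the sample weights, the replicate block and the libraries kept, and voom on back-calculated reads was added after seeing the data. Same-numbered libraries were not shown to be paired.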

Additional observations from a re-analysis of the deposited data

Results flagged for a closer look

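Among 176 groups of 4 libraries examined, 12 held a library whose gap to its nearest neighbour, divided by the range of its group, was above the 95% critical value of Dixon's test. Chance gives about 1 in 20. H2-DMb2 stood out in OGTBKO 2 with 0.908 FPKM, where the other OGTBKO libraries had 0.499 to 0.553 FPKM, and OGTBKO 2 was also the highest library of its group in the 6 class II genes that passed the test. H2-Oa stood out in WT 2 with 0.478 FPKM, from 9 reads, where the other WT libraries had at most 0.0465 FPKM.

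WT 3 stood out in the interferon targets, which summed to 293 FPKM there and to 57.1 to 96.4 FPKM in WT 1, WT 2 and WT 4. In the class II stretch it stood out in Psmb9 (6.48 FPKM), Psmb8 (7.25 FPKM) and Brd2 (15.7 FPKM, with 12.5 to 12.8 FPKM in WT 1, WT 2 and WT 4), and among other class I genes in Psmb10 (13.3 FPKM) and Erap1 (14.3 FPKM). Cd74, H2-Aa, H2-Ab1 and H2-Eb1 were not highest in WT 3 among the WT libraries. Ctss stood out in OGTBKO 1 with 25.1 FPKM, where the other OGTBKO libraries had 62.8 to 65.5 FPKM. The skeletal muscle markers summed to 1839 FPKM in OGTBKO 1 and to 648 FPKM in WT 1, far from the other libraries of either group. The white adipocyte markers summed to 139 FPKM in WT 1, where the other WT libraries had 66.4 to 73.6 FPKM.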

How the results depend on the processing

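The log2 change of each class II gene fitted was positive in every setting tried, 17 to 19 settings per gene. Cd74, H2-DMa and H2-DMb1 passed in all of them, H2-Eb1 in 17, H2-Aa in 12, H2-Ab1 in 10, Ciita in 3 and H2-DMb2 in 0. The 6 class II calls were 4 with no filter on low values, with the replicate block and with the GC content and length trend removed, 7 with array weights and with voom, and 3 to 7 without 1 library. The median of the class II changes ranged from 0.95 to 1.29 without 1 library. Over all genes, 2050 were called (1068 higher, 982 lower), against 1229 with no filter, 888 with the replicate block, 1237 with the library total as the denominator (987 higher and 250 lower, so 79.8% of calls were higher, against 52.1%), 3516 with array weights and 692 to 2122 without 1 library. The cause of these shifts was not tested. The library total moved the median of all genes to 0.09 on the log2 scale. Among the calls named above, those of Sppl2a, Canx, Stat3, Nfyc, Creb1, Cd163, Ebf1, S100a8 and Plac8 ended with it. Of these, all but Nfyc were lower in OGTBKO, and calls of list genes not named here ended in both directions. Same-numbered libraries deviated with r between -0.0070 and 0.22, over 0.1 in 2 of 4 pairs, and 4 of 8 libraries correlated best with their own number, so the numbers were not taken as pairs, and a call lost under the block is not read as a weaker effect. Over the 6 pathway lists 7 genes were called, 3 to 12 without 1 library and 11 without both libraries numbered 1. The sums of 3 of 19 lists did not overlap between groups, 3 to 6 without 1 library 5 without both libraries numbered 1 and 3 with Lpl left out of the macrophage list. Ciita moved to 0.72 with a pseudocount of 0.1 and to 0.90 with voom, H2-DMb2 to 0.64 with voom, and H2-DMb1 to 1.10 with the GC content and length trend removed. Removal of that trend also ended calls named above outside the class II genes. These were the calls of Sppl2a, Nfyc, Creb1, Dexi, Brd2, Cd52, Cd163, Fscn1, Sdc1 and Sncg. The planned fits with count models on back-calculated reads were not run, because the deposited unit is FPKM, and voom on those reads was added in their place after seeing the data. Depth limits H2-Oa and H2-DMb2, with at most 9 and 25 reads in a library.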
